A study of Mus musculus with 42 samples.

Results

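Id, Smad and Msx genes respond to bone morphogenetic protein (BMP) signalling, and 9 of them were followed here on the left and right of mouse heart fields. These were *Id1*, *Id2*, *Id3*, *Id4*, *Smad6*, *Smad7*, *Smad9*, *Msx1* and *Msx2*, chosen by name and found by matching Ensembl identifiers to GENCODE symbols. All 9 were among the 56953 genes counted and all 9 passed the filter on low counts in every comparison. The study compared *Ccdc40*lnks/lnks mutants with *Ccdc40*+/+ embryos, which were littermates where possible. *Ccdc40* encodes a component of motile cilia, which drive the leftward flow at the embryonic node, and lnks is a nonsense point mutation induced by ENU and carried in every cell, so that no Cre or transgene restricted it. From each of 21 embryos at E8.5i (embryonic day 8.5, substage i), the heart field was freed of the heart tube and surrounding parts, and its left and right sides were sequenced separately, which gave 42 RNA-seq libraries. Groups were 5 wild types with rightward heart looping (4 males and 1 female), 11 mutants with rightward looping (6 males and 5 females, called rightward mutants) and 5 mutants with inverted looping (3 males and 2 females, called inverted mutants). Replicates were separate embryos. The study divides rightward mutants further, into embryos that cluster with wild types by gene expression (situs solitus) and a heterotaxy cluster, which has discordant laterality. Labels do not give this division, so rightward mutants here are a mixture of both and not one laterality group.

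BMP ligands bind pairs of type I and type II receptors, which phosphorylate the receptor Smads SMAD1, SMAD5 and SMAD9. These join SMAD4 and enter the nucleus, where they switch on direct targets such as the Id genes, the inhibitory Smads *Smad6* and *Smad7*, and the Msx genes. In the lateral plate and cardiac mesoderm, BMP signalling is known for its part in specifying heart progenitors, and it takes part in left-right patterning of the mesoderm.

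Libraries held 36073684 to 62970327 counts. *Ccdc40* was at 15.2 to 26.5 CPM (counts scaled to the size of the library) in the 10 wild-type libraries and at 8.83 to 14.8 CPM in the 32 mutant libraries, so that its level separated the genotypes. The right library of the wild type 10_1 stood apart from the other wild types. Its summed neural tube markers were at 196 CPM, beside 41.4 to 89.2 CPM in the other 4 right wild-type libraries, its heart tube muscle markers were at 883 CPM, the lowest of these 5 libraries, and results that rest on it are given with and without it. Although the heart tube had been removed, muscle markers were present in every library, with *Myl7* between 60.6 and 967 CPM.

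On GRCm39, all 9 genes are protein coding. *Smad7* aside, which is placed with its values, they lie at chr2:152566218-152579544 (*Id1*, plus strand), chr12:25143798-25147282 (*Id2*, minus), chr4:135870808-135873066 (*Id3*, plus), chr13:48414558-48419502 (*Id4*, plus), chr9:63860341-63929793 (*Smad6*, minus), chr3:54662963-54708680 (*Smad9*, plus), chr5:37977829-37981928 (*Msx1*, minus) and chr13:53620914-53627110 (*Msx2*, minus). Exons of antisense long non-coding RNAs overlap *Id1*, *Id2*, *Id3* and *Id4*. The use of strand in counting is not given in the sources used here, so reads of these 4 genes and of their antisense partners could not be told apart.

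Sequence upstream of the start was examined because these genes share a pathway. SMAD complexes are known to bind GTCT (on the other strand AGAC), and complexes formed under BMP to bind GC-rich elements such as GGCGCC, which reads the same on both strands. RefSeq promoters were at hand for 7 of the 9 genes (not *Id1* and *Smad7*), and their 250 bases before the RefSeq start were placed on GRCm39 by exact match. GGCGCC was found in 3 of 7 windows, those of *Id2*, *Id4* and *Smad9*, beside 9.59% of the same windows of 32851 promoters. GTCT or AGAC was found in 5 of 7, beside 82.9% of all promoters. The joined element of GGCGCC, any 5 bases and GTCT, in either orientation, was found in 0 of 7 and in 0.07% of all promoters. GC content of the 7 windows was between 61.6% and 75.6%. Stretches of 4 genes that hold an element, and the window of *Msx1*, which holds neither, are shown 5′ to 3′ on the strand of the gene, with these elements in capitals. Windows of *Id2* and *Msx2* lie within exons of longer transcripts, so only the surroundings of an element are shown for them, and bases within annotated exons were left out for *Id4* and *Smad9*.
*Id2*, chr12:25146307-25146332, minus strand: aggccccctgGGCGCCcagcgcacac
*Id4*, chr13:48414342-48414557, plus strand: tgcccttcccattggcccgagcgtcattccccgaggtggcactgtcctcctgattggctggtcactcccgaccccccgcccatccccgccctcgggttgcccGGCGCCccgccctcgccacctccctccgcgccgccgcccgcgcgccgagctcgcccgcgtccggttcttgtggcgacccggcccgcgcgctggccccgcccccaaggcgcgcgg
*Smad9*, chr3:54662753-54662962, plus strand: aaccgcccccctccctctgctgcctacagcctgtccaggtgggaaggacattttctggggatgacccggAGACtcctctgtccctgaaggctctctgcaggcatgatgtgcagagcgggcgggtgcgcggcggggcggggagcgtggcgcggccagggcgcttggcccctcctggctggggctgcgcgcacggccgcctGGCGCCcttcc
*Msx2*, chr13:53626866-53626889, minus strand: gttgagccgaGTCTcccacttccc
*Msx1*, chr5:37981930-37982179, minus strand: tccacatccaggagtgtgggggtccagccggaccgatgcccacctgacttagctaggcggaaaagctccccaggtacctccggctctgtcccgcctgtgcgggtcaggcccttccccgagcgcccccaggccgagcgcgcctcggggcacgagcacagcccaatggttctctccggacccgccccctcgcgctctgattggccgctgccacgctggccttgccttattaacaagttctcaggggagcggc

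The 9 genes covered a wide range of levels. Per kilobase of exon, *Id3* was highest, with a median of 222 CPM per kb over the 42 libraries (range 184 to 290). *Id2* (median 119 CPM per kb, range 87.3 to 156) and *Id1* (97.1, range 76.1 to 143) followed, and their ranges overlapped, with *Id2* above *Id1* in 38 of 42 libraries. *Id3* was above *Id2* in all 42 libraries and their ranges did not overlap. ID proteins are helix-loop-helix factors without a DNA-binding region, which hold bHLH partners such as E proteins away from DNA. *Msx1* (30.4 CPM per kb) and *Msx2* (10.4 CPM per kb), homeobox repressors, were next, with *Msx1* above *Msx2* in all 42 libraries. The inhibitory Smads were low, at 2.88 CPM per kb for *Smad6* and 2.30 for *Smad7*, and *Smad6* was the higher of this pair in 36 of 42 libraries. *Smad9*, the receptor Smad that is itself a BMP target, was at 1.32 CPM per kb, and *Id4* was lowest at 0.923 CPM per kb. Counts behind single values were between 78 and 320 for *Id4* and between 12843 and 27338 for *Id3*, so counting error was largest for *Id4*.

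The first question was whether these genes differ between right and left in each group of genotype and looping direction. In inverted mutants, all 9 genes had a positive log2 fold change of right over left, with a median of 0.35 beside -0.01 over all 22960 genes tested. *Smad7* and *Msx2* passed the threshold, an adjusted p under 0.05, a share of 2 in 9, beside 1.72% of all genes called as higher on the right. This share depends on the embryos, since the 468 genes called in either direction became 138 without 32_2, 181 without 18_2 and 222 without 4_6. In bulk samples such as these, fewer cells of a type and less RNA per cell cannot be told apart. Exact sign-flip tests over 5 embryos cannot go below p = 0.0625, so the test is the quasi-likelihood test of edgeR, in which each embryo was a block, Benjamini-Hochberg adjusted over all genes.

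Among Id genes, right exceeded left in all 5 inverted mutants for *Id1*, *Id2* and *Id4*, but none passed the threshold. *Id1*, often used as a readout of BMP activity, was at 164, 156, 148, 137 and 135 CPM on the left of embryos 2_7, 4_6, 10_3, 18_2 and 32_2, and at 204, 194, 157, 239 and 154 CPM on the right of the same embryos. Both sides overlapped, and the widest gap was in 18_2. *Id1* had a log2 fold change of 0.35 (SE 0.09; adjusted p = 0.11 by the quasi-likelihood test of edgeR, Benjamini-Hochberg adjusted). *Id2*, in the same order, was at 379, 316, 371, 414 and 379 CPM on the left and at 419, 451, 398, 544 and 415 CPM on the right. Its log2 fold change was 0.27 (SE 0.06; adjusted p = 0.08 in the same edgeR test). *Id3*, the highest per kilobase of exon, was nearly even, with log2 ratios from -0.09 to 0.31 and the right higher in 3 of 5 embryos. *Id4* had log2 ratios between 0.08 and 0.65, at 2.78 to 5.61 CPM on the left and 3.29 to 5.92 CPM on the right. In 4_6, 10_3 and 18_2 these ratios were only 0.08, 0.09 and 0.10, from counts of 134 to 241. Before scaling, the counts of 4_6 and 10_3 were higher on the left.

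**Figure D1:**
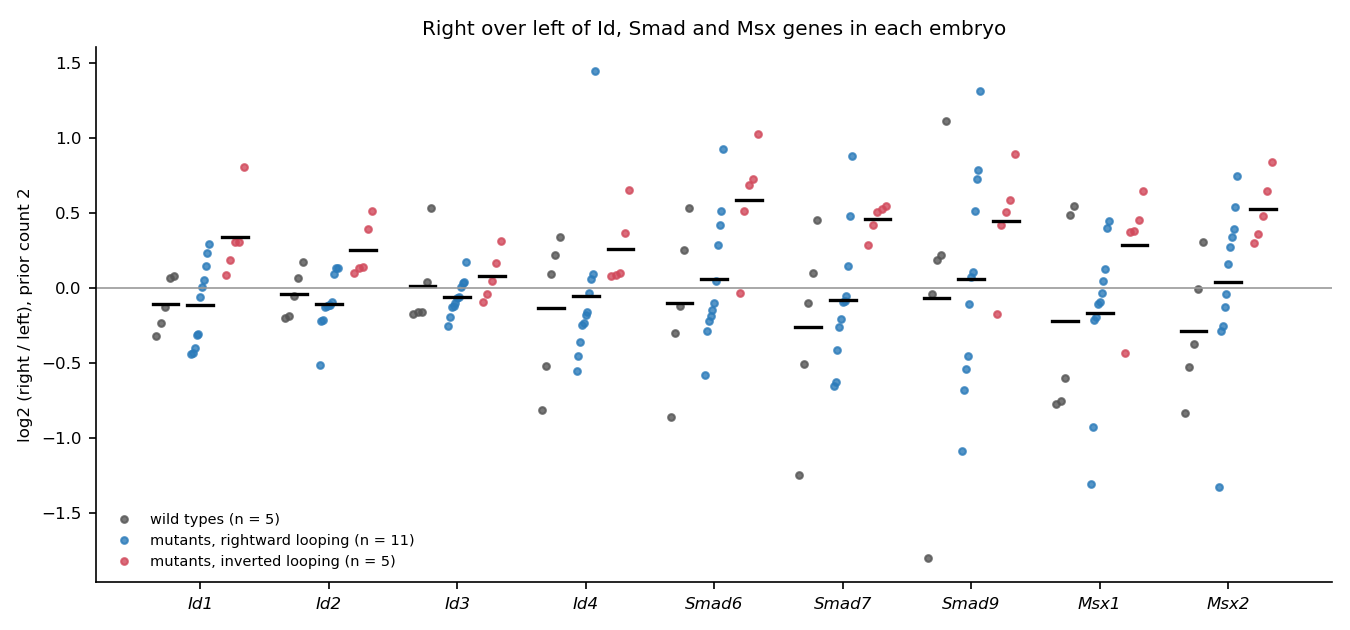
Log2 ratio of right over left (vertical axis) of each of the 9 genes (horizontal axis) in each embryo, with 1 point per embryo, coloured by group, and a black bar at the group mean. All 5 inverted mutants lie above 0 for *Id1*, *Id2*, *Id4*, *Smad7* and *Msx2*, whereas wild types and rightward mutants lie on both sides of 0 for every gene.

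Among inhibitory Smads, *Smad7* (chr18:75500374-75529006, plus strand) was higher on the right. SMAD7 blocks receptors of the BMP and TGF-β families. On the left it was at 8.89, 10.0, 8.91, 10.3 and 9.14 CPM in embryos 2_7, 4_6, 10_3, 18_2 and 32_2, and on the right at 12.8, 14.2, 10.9, 15.1 and 12.2 CPM. Every right sample was above every left sample. The log2 fold change was 0.47 (SE 0.09; adjusted p = 0.039 by the quasi-likelihood test of edgeR, Benjamini-Hochberg adjusted), and log2 ratios of single embryos were between 0.29 and 0.54. *Smad6*, which inhibits BMP receptors more selectively, had the largest log2 fold change of the 9 genes at 0.59 (SE 0.15), yet did not pass (adjusted p = 0.11 in the same edgeR test). On the left it was at 8.61, 11.7, 7.06, 7.46 and 5.96 CPM and on the right at 13.9, 11.4, 10.1, 12.4 and 12.1 CPM. Embryo 4_6 had the highest left value and no excess on the right. *Smad9* was likewise higher on the right in 4 of 5 embryos, with 4_6 as the exception (log2 fold change 0.46, SE 0.16, adjusted p = 0.21 in the same edgeR test).

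*Msx2* was higher on the right of inverted mutants. MSX1 and MSX2 are transcription factors that act downstream of BMP in many tissues of the embryo. *Msx2* was at 30.99, 21.4, 17.9, 28.0 and 25.9 CPM on the left of embryos 2_7, 4_6, 10_3, 18_2 and 32_2, and at 38.2, 27.5, 25.0, 43.9 and 46.3 CPM on the right. Right exceeded left in each embryo, although both sides overlapped between embryos. The log2 fold change was 0.54 (SE 0.09; adjusted p = 0.027 by the quasi-likelihood test of edgeR, Benjamini-Hochberg adjusted). *Msx1* was at 70.7, 58.8, 70.6, 98.6 and 110 CPM on the left and at 92.0, 43.6, 110, 135 and 143 CPM on the right. Embryo 4_6 ran opposite to the other 4, and the log2 fold change of 0.30 (SE 0.14) did not pass (adjusted p = 0.36 in the same edgeR test).

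Counted over the list, 6 of 9 genes had an unadjusted p under 0.05 towards the right, beside 9.29% of all genes, and 5 of 9 were higher on the right in every inverted mutant, beside 8.02% of all genes. With 4 embryos in place of 5, most calls were lost although the fold changes stayed near the reported ones. *Smad7* had log2 fold changes of 0.43 to 0.51 over the 5 fits and was not called in any of them, whichever embryo was left out (adjusted p between 0.056 and 0.16 by the quasi-likelihood test of edgeR, Benjamini-Hochberg adjusted). *Msx2* had log2 fold changes of 0.45 to 0.59, kept its call without 2_7 (adjusted p = 0.039 in the same edgeR test) and lost it without each of 4_6, 10_3, 18_2 and 32_2 (up to 0.10). Both genes also lost their calls in a fit of all 42 libraries, with males alone and without the embryo as a block. In that order, adjusted p by the same edgeR test was 0.27, 0.40 and 0.059 for *Smad7*, and 0.21 each time for *Msx2*. Without 4_6, the genes called were *Smad6* and *Msx1*. The median over the 9 genes stayed between 0.29 and 0.46 when any embryo was left out.

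**Figure D2:**
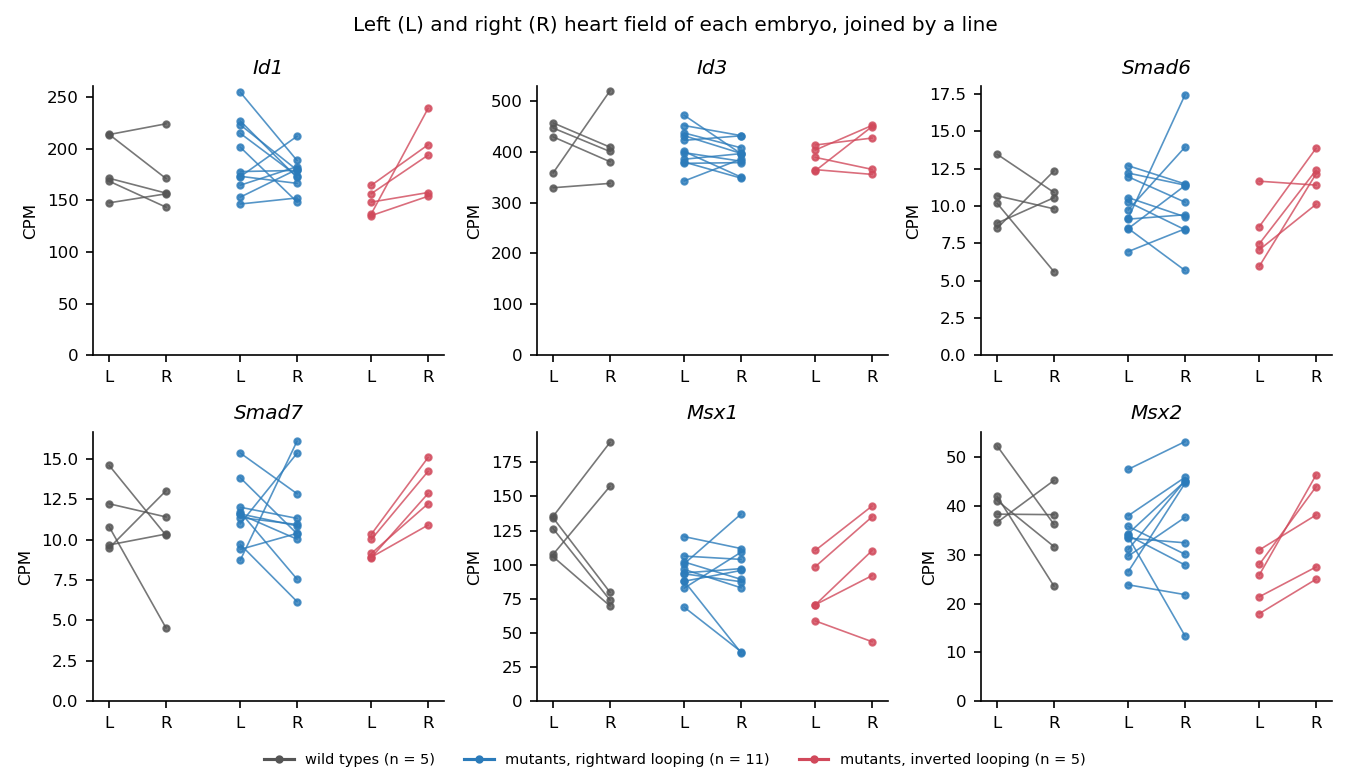
CPM on the left (L) and right (R) of each embryo for *Id1*, *Id3*, *Smad6*, *Smad7*, *Msx1* and *Msx2*, with a line joining both samples of an embryo and colours marking the groups. Lines of all 5 inverted mutants rise for *Id1*, *Smad7* and *Msx2*, and those of other groups run in both directions.

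In rightward mutants, none of the 9 genes passed the threshold, where 0.0263% of 22795 genes did, all of them lower on the right. At an unadjusted p under 0.05, 1 of 9 genes (*Id2*, log2 fold change -0.11) was lower and 0 were higher, beside 2.00% and 1.58% of all genes. The median log2 fold change was -0.07, and 3 genes had a positive value. Embryos differed in both directions, in a group that mixes situs solitus and heterotaxy. *Smad7* on the left was at 8.71 CPM at the lowest, 11.6 at the median and 15.3 at the highest over 11 embryos, and on the right at 6.16, 10.8 and 16.1 CPM. Its log2 ratios ran from -0.65 in 2_2 to 0.88 in 19_4. *Msx2* was at 23.9, 33.7 and 47.5 CPM (lowest, median and highest) on the left and at 13.4, 37.7 and 53.2 CPM on the right, with log2 ratios from -1.33 in 2_2 to 0.75 in 19_4. These same 2 embryos bounded the medians over all 9 genes. In 2_2 all 9 genes were lower on the right, with a median log2 ratio of -0.58, and in 19_4 the right was higher for 8 of 9, with a median of 0.75. The remaining 9 embryos had medians between -0.29 and 0.17. *Id3* was the narrowest, with log2 ratios between -0.25 and 0.17, and *Smad9* among the widest, from -1.08 to 1.31.

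In wild types, no gene of 23182 passed the threshold by edgeR's quasi-likelihood test, and DESeq2 called 20 genes, none of them among the 9. At an unadjusted p under 0.05, 639 genes passed (2.76%), with 0 of the 9 among them. *Id3* had a log2 fold change of 0.01 and the other 8 genes had values between -0.29 and -0.03, with a median of -0.11 over the list. *Smad7* was at 9.66, 14.6, 10.8, 12.2 and 9.48 CPM on the left of 7_1, 8_1, 10_1, 17_7 and 22_4, and at 10.3, 10.3, 4.54, 11.4 and 13.0 CPM on the right. Among right wild-type samples, 10_1 was lowest for 7 of the 9 genes and highest for *Id3* and *Msx1*. *Smad9* was at 2.32 CPM there, beside 6.81 to 11.4 CPM in the other 4 right wild-type samples. Without 10_1, the median over the 9 genes was -0.02, and 3 of 9 values were positive. *Msx1* split the wild types, with the right lower in 7_1, 8_1 and 22_4 (log2 ratios from -0.77 to -0.60) and higher in 10_1 and 17_7 (0.48 and 0.55).

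**Figure D3:**
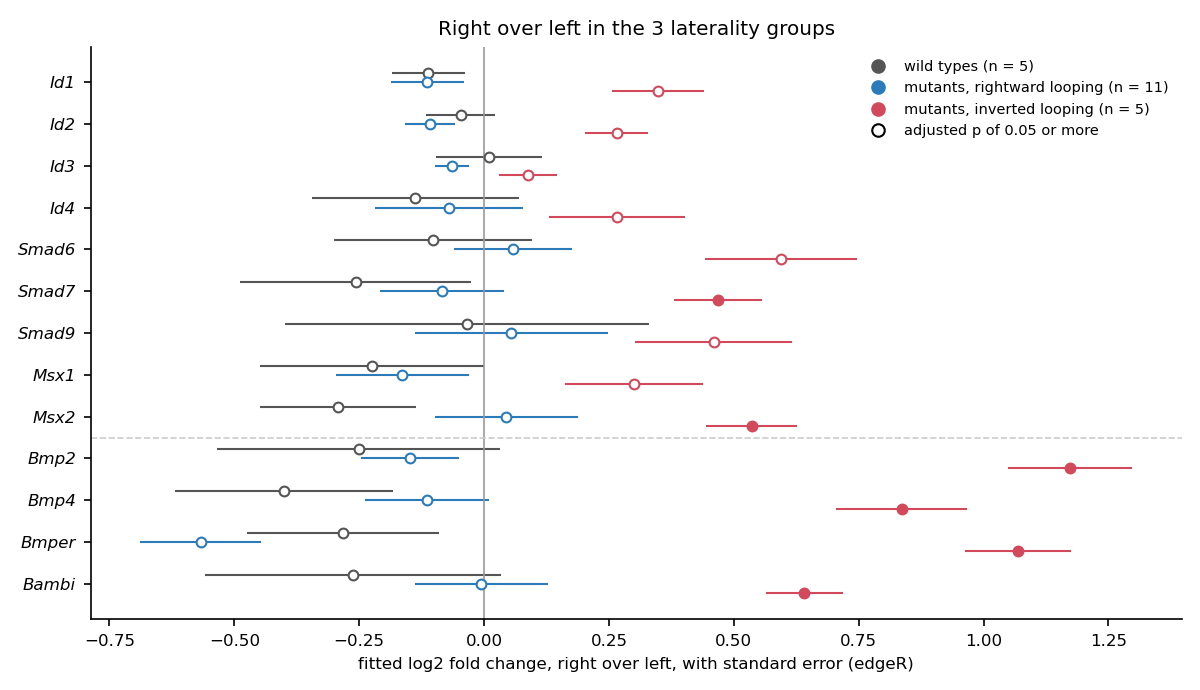
Fitted log2 fold change of right over left (horizontal axis) with its standard error for the 9 genes and, under the dashed line, for *Bmp2*, *Bmp4*, *Bmper* and *Bambi*, in the 3 groups. Filled points passed an adjusted p under 0.05 by edgeR's quasi-likelihood test, which was the case only in inverted mutants, for *Smad7*, *Msx2* and the 4 genes under the line.

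The next question was whether the asymmetry itself differs between groups. Comparisons of inverted mutants with rightward mutants and with wild types share the inverted mutants. Against rightward mutants, all 9 genes had a larger log2 fold change of right over left in inverted mutants, by a median of 0.45 beside -0.01 over 26335 genes. None passed the threshold, where 0.311% of all genes did. At an unadjusted p under 0.05, 4 of 9 genes were higher, beside 6.68% of all genes, and these were *Id1*, *Id2*, *Smad6* and *Smad7*, a count that was 2 without 18_2, without 2_7 or with males alone. *Id2* had the smallest adjusted p of these (difference of 0.36, SE 0.09; adjusted p = 0.0997 by the quasi-likelihood test of edgeR, Benjamini-Hochberg adjusted). By DESeq2, *Id1* and *Id2* passed. Against wild types, all 9 genes again had positive differences, with a median of 0.48, and none passed, where 0.513% of genes did. *Id1*, *Id2*, *Smad6*, *Smad7* and *Msx2* had an unadjusted p under 0.05, a count of 5 of 9 beside 7.67% of all genes that was 2 with males alone. *Msx2* had the largest difference at 0.81 (SE 0.27; adjusted p = 0.18 in the same edgeR test). *Id1* was the only one of the 9 whose log2 ratios did not overlap between these groups. They were 0.09 to 0.80 in inverted mutants and -0.32 to 0.08 in wild types. An exact permutation test, two-sided, gave p = 0.0079, the smallest p that 252 regroupings of 5 against 5 allow, unadjusted over 9 genes in 3 pairs of groups. In 1.21% of all genes, every inverted mutant was likewise above every wild type. By DESeq2, *Id1* passed. Without 10_1, the median difference from wild types was 0.41 and all 9 remained positive. Between rightward mutants and wild types, no gene of 26335 was called by edgeR or by DESeq2, and the 9 genes had differences between -0.08 and 0.33, with an unadjusted p above 0.05 for each beside 3.04% of all genes under it. Their median was 0.06. Leaving out 1 embryo moved it in both directions, to negative values without 10_1 (-0.04), 8_1 (-0.03) or 19_4 (-0.03) and upwards without 22_4 (0.19), 2_2 (0.18) or 17_7 (0.16).

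Levels on each side were compared between groups to see on which side the groups differed, with sex as a covariate. On the left, all 9 genes had negative log2 fold changes of inverted mutants against wild types, with a median of -0.28 beside 0.01 over all genes, and against rightward mutants, with a median of -0.26 beside 0.01. None passed the threshold in either comparison, where 0.0282% and 0.0121% of 24838 genes did. At an unadjusted p under 0.05, 6 of 9 were lower than in wild types, beside 4.16% of all genes, and 4 of 9 were lower than in rightward mutants, beside 5.04%. The count of 6 was 4 without 10_3 or wild type 10_1, 3 without 2_7 and 2 without 32_2 or without wild type 8_1. It was 3 when sex was not a covariate, and 4 when the libraries of these groups alone were fitted or library size alone was used for scaling. *Msx2* on the left was at 41.1, 52.3, 41.97, 36.6 and 38.3 CPM in wild types 7_1, 8_1, 10_1, 17_7 and 22_4, beside 17.9 to 30.99 CPM in inverted mutants. All inverted mutants thus lay below all wild types, a pattern in this direction shown by 0.636% of all genes. The left of rightward mutants, at 23.9 to 47.5 CPM, overlapped both ranges. The log2 fold change against wild types was -0.79 (SE 0.16; adjusted p = 0.09 by the quasi-likelihood test of edgeR, Benjamini-Hochberg adjusted). *Msx1* on the left was at 106 to 135 CPM in wild types, 68.9 to 121 CPM in rightward mutants and 58.8 to 110 CPM in inverted mutants, with a log2 fold change of -0.58 (SE 0.15; adjusted p = 0.33 in the same edgeR test) between inverted mutants and wild types. DESeq2 called both Msx genes here. On the left of rightward mutants against wild types, *Msx2* had a log2 fold change of -0.36 and *Msx1* of -0.37, the 2 of 9 genes with an unadjusted p under 0.05 towards lower values, beside 2.03% of all genes, and neither passed the threshold, where 0.0242% did. On the right, no gene of the list had an unadjusted p under 0.05, beside 4.26% of 24859 genes for inverted against rightward mutants, 5.93% for inverted mutants against wild types and 3.28% for rightward mutants against wild types. Adjusted, 0.00805%, 0% and 0.0121% passed, and medians of the 9 genes were between 0.02 and 0.15.

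Ligands, receptors and regulators of the pathway were counted in the same fits. In inverted mutants, 3 of 7 BMP ligand genes rose towards the right, with a median log2 fold change of 0.48 over the 7. *Bmp2* was at 27.7, 25.8, 16.4, 19.0 and 17.6 CPM on the left of 2_7, 4_6, 10_3, 18_2 and 32_2, and at 48.6, 48.4, 33.8, 57.7 and 48.5 CPM on the right, without overlap. Its log2 fold change was 1.17 (SE 0.12; adjusted p = 0.0056 by the quasi-likelihood test of edgeR, Benjamini-Hochberg adjusted). *Bmp4* was at 51.4, 56.8, 36.7, 49.0 and 35.3 CPM on the left and at 75.3, 71.5, 70.3, 101 and 85.3 CPM on the right, again without overlap, with a log2 fold change of 0.84 (SE 0.13; adjusted p = 0.020 in the same edgeR test). *Bmp7* had a log2 fold change of 0.48 and an adjusted p of 0.029 in the same edgeR test. Without single embryos, *Bmp4* was called in 3 of 5 fits (not without 18_2 or 32_2) and *Bmp7* in 1 of 5 (without 10_3).

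None of 7 receptor genes was called, with a median of 0.08, and none of *Smad1*, *Smad4* and *Smad5*, with a median of -0.07. Of 11 antagonist and extracellular regulator genes, *Bmper*, whose product binds BMPs and can inhibit or promote their activity, rose by 1.07 (SE 0.11; adjusted p = 0.0048 by the quasi-likelihood test of edgeR, Benjamini-Hochberg adjusted), and the median over the 11 was -0.08. Of 11 other response genes, 3 rose, and these were *Bambi*, a pseudoreceptor that dampens BMP signalling (0.64), and the cardiac transcription factor genes *Tbx20* (0.95) and *Nkx2-5* (1.06). The median over the 11 was 0.56. Genes of the E proteins that ID proteins bind, *Tcf3*, *Tcf4* and *Tcf12*, did not pass and had a median of -0.24. In all, 7 of these 42 pathway genes were called as higher on the right of inverted mutants, beside 1.72% of all genes, and 0 as lower. In rightward mutants and wild types 0 of 42 were called in either direction, where 0.0263% and 0% of all genes were, so that these counts of 0 do not set the pathway apart. *Bmp2* and *Bmper* were also called for a larger asymmetry in inverted mutants than in rightward mutants (by 1.31 and 1.62) and than in wild types (by 1.41 and 1.34). With 1 embryo left out, *Bmper* was called against rightward mutants in all 16 fits. *Bmp2* lost that call without 4_6, 18_2 or 32_2 (called in 13 of 16). Against wild types, *Bmp2* lost its call without 10_3, 18_2, 32_2, 8_1 or 10_1 (called in 5 of 10, with differences of 1.13 to 1.66), and *Bmper* without 18_2, 32_2 or 10_1 (called in 7 of 10, with differences of 1.16 to 1.48).

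Log2 ratios of the 9 genes were set against those of *Bmp2* and *Bmp4* over the 11 rightward mutants, the only group large enough, which made 18 relations. *Smad7* followed both ligands closely. With *Bmp2*, Pearson's r was 0.96 (p = 1e-05, the smallest that 100000 permutations can give) and Spearman's rho was 0.83 (permutation p = 0.0028), with p-values adjusted over the 18 relations of 0.00018 and 0.017. With *Bmp4*, r was 0.94 and rho was 0.94 (permutation p = 2e-05 and 0.00012, adjusted 0.00018 and 0.0022). Without the 2 embryos farthest from the median of the ligand, r was 0.87 with *Bmp2* and 0.89 with *Bmp4*. *Smad6* had r of 0.87 with *Bmp2* and 0.86 with *Bmp4* (permutation p = 0.00047 and 0.0007, adjusted 0.0028 and 0.0031), with rho of 0.80 and 0.89 (permutation p = 0.0048 and 0.00055, adjusted 0.022 and 0.0049), and r of 0.72 and 0.68 without the 2 farthest embryos. *Id3* had the lowest r, at 0.26 with *Bmp2* and 0.11 with *Bmp4* (permutation p = 0.44 and 0.75, adjusted 0.46 and 0.75; rho 0.23 and 0.08, permutation p = 0.50 and 0.82, adjusted 0.53 and 0.82). Of the 18 relations, 12 passed an adjusted p under 0.05 by Pearson's r and 6 of them by rho as well. The same r was computed for 13020 protein-coding genes with a mean of at least 1 CPM, members included. With *Bmp2*, 6.15% of these genes had an r at least as high as the lowest of the 5 members that passed (0.69), and with *Bmp4*, 11.1% had one at least as high as the lowest of 7 (0.64). An r as high as that of *Smad6* was reached by 0.522% of genes with *Bmp2* and by 1.01% with *Bmp4*, and one as high as that of *Smad7* by 0.0154% and 0.0691%. Without the 2 farthest embryos, 4 of these 12 kept an unadjusted p under 0.05 in an exact permutation test over 9 embryos, and these were *Smad6* and *Smad7* with either ligand. The other 8 (*Id1*, *Id4* and *Smad9* with either ligand, *Msx1* and *Msx2* with *Bmp4*) did not, although r of *Smad9* with *Bmp2* moved little, from 0.69 to 0.65. The relation of *Id4* with *Bmp2* went from r of 0.76 (adjusted permutation p = 0.012) to 0.30 and that of *Msx1* with *Bmp4* from 0.67 (adjusted permutation p = 0.036) to 0.31, so that both rested on the 2 farthest embryos. Both samples of an embryo share their dissection, and the ratios of a gene and of a ligand come from the same 2 libraries.

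**Figure D4:**
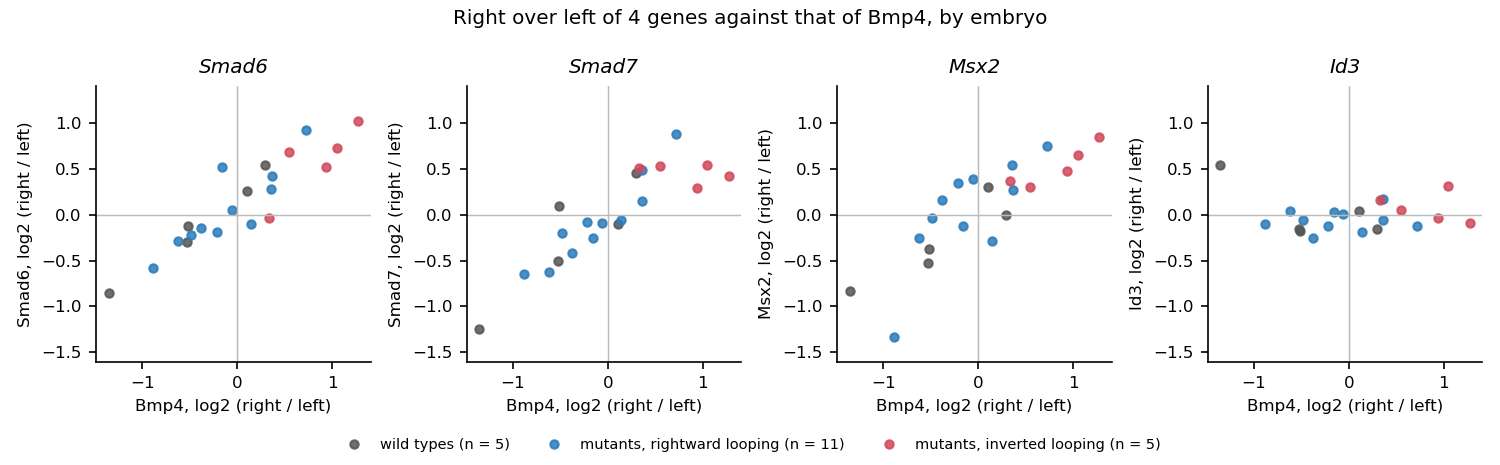
Log2 ratio of right over left of *Smad6*, *Smad7*, *Msx2* and *Id3* (vertical axes) against that of *Bmp4* (horizontal axes), with 1 point per embryo coloured by group. Points of *Smad6*, *Smad7* and *Msx2* climb with *Bmp4*, and those of *Id3* stay between -0.25 and 0.54 over the whole range of *Bmp4*.

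Markers of other tissues also differed between right and left. In inverted mutants, the summed CPM of 8 heart tube muscle markers was 1228 to 2419 (median 1825) on the left and 2304 to 4825 (median 4105) on the right, with higher values on the right of all 5 embryos. Of these 8 markers, 6 were called as higher on the right, with a median log2 fold change of 1.03 over the 8. The summed CPM of 6 neural tube markers was 69.6 to 110 on the left and 42.7 to 82.8 on the right, with higher values on the left of all 5 embryos and 2 of 6 markers called as lower on the right. Paraxial mesoderm markers had a median log2 fold change of -0.86 with 0 of 5 called, and the sum of 6 markers of sinus venosus and proepicardium was higher on the right of all 5 embryos (median log2 ratio 0.51, 2 of 6 called). Second heart field markers, of progenitors that add to the heart tube, had a higher sum on the right of all 5 embryos (222 to 328 CPM on the left and 320 to 442 CPM on the right), with 1 of 6 called. Surface ectoderm markers were likewise higher on the right of all 5 embryos (median log2 ratio of the sum 0.65, 0 of 5 called), as were endothelial markers (0.19, 0 of 6 called). *Krt8* and *Krt18*, with medians of 493 and 551 CPM over all libraries, weighed most in the surface ectoderm sum, with *Epcam* next at 118 CPM. The tissue that these transcripts came from was not tested. Foregut endoderm markers were higher on the right of 4 of 5 (0.41, 1 of 6 called) and neural crest markers lower on the right of 4 of 5 (-0.25, 0 of 5 called), whereas visceral endoderm and blood markers were higher on the right of 3 and 2 of 5. Markers of amnion and extraembryonic mesoderm, a list that includes *Bmp4*, were higher on the right of 4 of 5 (median 0.83, 1 of 5 called), and roof plate markers were lower on the right of all 5 (median -2.17, with 2 of 4 passing the filter on low counts and 0 called). No muscle marker was at a count of 0 in any library, whereas *Sox1* and *Olig2* of the neural list were at 0 in some.

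Single embryos of other groups were read in the same way. In rightward mutant 2_2, muscle markers had a log2 ratio of -1.84 beside a median of -0.58 for the 9 genes, and in 19_4 they had 1.36 beside 0.75. In wild type 10_1, muscle markers had -1.64 and neural tube markers 1.87 beside -0.81 for the 9 genes. Rightward mutant 19_6 had 1.82 for neural tube markers and 0.20 for muscle beside -0.20 for the 9 genes. Inverted mutant 4_6 had 1.04 for muscle beside 0.16 for the 9 genes. Second heart field markers lay close to the members in several embryos, with log2 ratios of -0.85 in 10_1, -0.61 in 2_2, -0.30 in 17_1 and 0.91 in 19_4 beside -0.81, -0.58, -0.29 and 0.75 for the 9 genes. They lay further apart in wild types 7_1 (0.33 beside -0.12), 17_7 (0.48 beside 0.08) and 22_4 (0.39 beside 0.17) and in rightward mutant 1_6 (0.57 beside 0.03). The same held for inverted mutants 4_6 (0.43 beside 0.16) and 10_3 (0.07 beside 0.29). The part of these tissues in the results on the 9 genes was not tested.

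**Figure D5:**
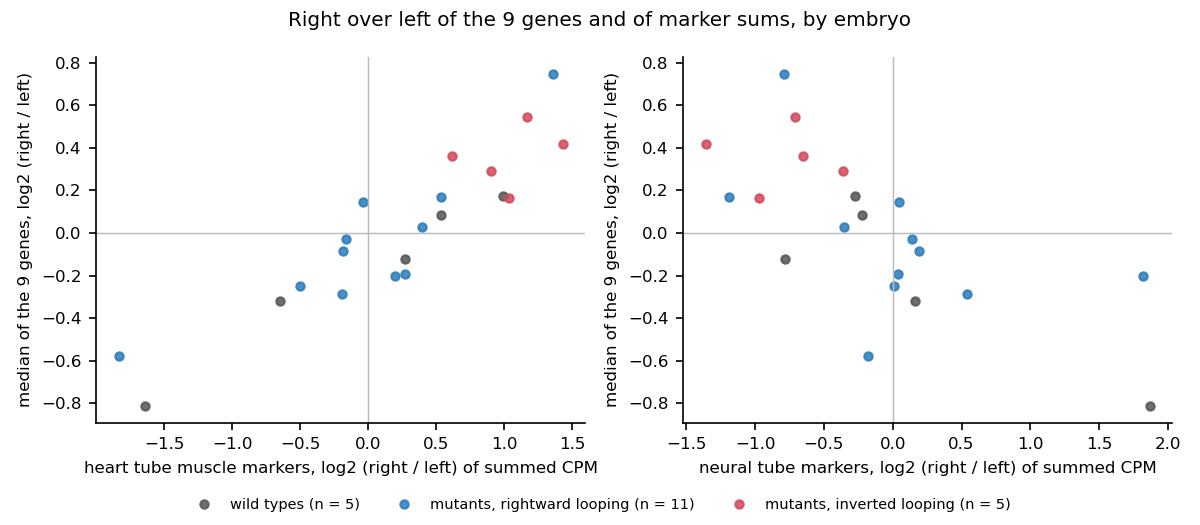
Median log2 ratio of right over left of the 9 genes (vertical axis) against that of the summed CPM of heart tube muscle markers (left panel) and neural tube markers (right panel), with 1 point per embryo coloured by group. Wild type 10_1 and rightward mutant 2_2 lie lowest in both panels, with muscle ratios of -1.64 and -1.84, and rightward mutant 19_4 lies highest.

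The 9 genes did not vary as a block. After the mean of each group was removed, log2 ratios over 21 embryos were most alike for *Smad6* and *Smad9* (r of 0.84), *Smad7* and *Smad9* (0.81), *Id4* and *Smad7* (0.80), *Smad6* and *Smad7* (0.79) and *Id1* and *Id2* (0.79). With any 1 embryo left out, these 5 values stayed between 0.71 and 0.87. *Id3* had r of -0.45 with *Smad9* and -0.35 with *Smad7*, but these rested on wild type 10_1, without which they were -0.01 and 0.13. Without 10_1, *Id3* had r of 0.64 with *Id1* and 0.63 with *Id2* (0.33 and 0.23 with it) and between -0.02 and 0.13 with the other 6 genes. *Msx1* had r of 0.56 with *Msx2* (0.73 without 10_1, 0.31 without 2_2). With the other 7 genes it had r between -0.18 and 0.25, and between -0.11 and 0.42 without 10_1. These values are descriptions of 21 embryos, whose ratios share libraries.

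Among 13020 protein-coding genes with a mean of at least 1 CPM, the 2 with the highest r to each member by the same measure were *Dok5* (0.86) and *Ccn1* (0.85) for *Id1*, *Tbca* (0.85) and *Gpc3* (0.83) for *Id2*, *Wfikkn1* (0.84) and *Prorp* (0.83) for *Id3*, and *Fam78a* (0.87) and *Srf* (0.87) for *Id4*. For *Smad6* they were *Itga3* (0.91) and *Arhgap6* (0.90), for *Smad7* *Col4a6* (0.94) and *Pcdh7* (0.92), and for *Smad9* *Gata2* (0.95) and *Adam9* (0.92). For *Msx1* they were *Hoxb6* (0.79) and *Postn* (0.74), and for *Msx2* *Pdlim1* (0.93) and *Lrrn4* (0.90). The genes nearest to the members thus differed for each, with no gene named for more than 1 member. Without 10_1, r of these 18 genes was between 0.71 and 0.94. *Wfikkn1* went from the first to rank 26 of the genes nearest to *Id3* (r of 0.71), and the other 17 stayed within the first 5.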

How the data were processed

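RNA of paired left and right heart fields was sequenced after poly(A)-based low-input library preparation, as paired ends. Per the labels and the study's methods, the authors trimmed adapters, checked quality with FastQC and Picard, and removed duplicates. They aligned with STAR to Ensembl GRCm39 and deposited raw counts per gene from featureCounts (Subread 2.0.6), with the strand setting not given in the sources used here. Of 56953 gene identifiers, 56310 matched the GENCODE annotation. Totals were 36073684 to 62970327 counts per library (median 43458644), and no 2 libraries agreed within sampling noise (lowest chi-square per gene 7.40 over 861 pairs).

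Counts were filtered with filterByExpr (minimum count 5, minimum total count 10, large n 50, minimum proportion 0.2), scaled by TMM and tested with edgeR 4.0.16 (glmQLFit and glmQLFTest, two-sided, Benjamini-Hochberg over all genes tested, threshold 0.05) in R 4.3.3. Right over left was fitted within each group with each embryo as a block, differences in asymmetry as the interaction of side and group over all 42 libraries, and levels within a side with sex as covariate. Pairing comes from the embryo, since both samples of a pair are one animal, and paired samples deviated together (median correlation 0.31 over 21 pairs and 2000 genes, over 0.1 in 19 of 21). DESeq2 1.42.0 was an alternative. Log2 ratios of single embryos used TMM-scaled CPM with a prior count of 2, and exact and permutation tests and tables were made with Python 3.11.15, NumPy 2.4.6, SciPy 1.17.1 and pandas 2.3.3. Fits were tested on simulated data in which samples of an embryo did not vary together, unlike the real pairs. There DESeq2 recovered more of the changed genes than edgeR and also called many more unchanged ones in each right over left comparison. DESeq2 was not simulated for the other comparisons. Counts per kilobase used the summed exon length of a gene.

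Genes named are the 9 members, other pathway genes past the threshold in a right over left comparison or a difference of asymmetry, *Ccdc40*, markers, and the 2 genes most like each member. Members and lists were chosen with earlier results of these data known. The study's own division of mutants into situs solitus and heterotaxy by gene expression is not in the labels and was not used. Promoter sequences came from RefSeq (GRCm38.p6) and were placed on GRCm39 by exact match. Alternatives were another test, other scalings and filters, no replicate block, other samples in the fit, males alone, no sex covariate, another prior count and each embryo left out.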

Additional observations from a re-analysis of the deposited data

Results flagged for a closer look

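A search for embryos far from the others covered 72 groups of values, from the 9 genes, *Bmp2*, *Bmp4* and *Ccdc40* in wild types and inverted mutants. In 3 of them an embryo lay far from the others, where chance gives about 1 in 20. All 3 were groups of the 9 genes, and rightward mutants were not screened. On the left of wild type 8_1, *Id2* was at 489.6 CPM beside 376.4 to 408.6 CPM in the other 4 wild types, and *Id4* was at 7.189 CPM beside 3.089 to 3.676 CPM. In inverted mutant 4_6, *Msx1* had a log2 ratio of right over left of -0.4317 beside 0.3722 to 0.6436 in the other 4.

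Asymmetry differed between groups for a pair of pathway genes by the interaction of side and group in edgeR's quasi-likelihood test. *Bmp2* had a log2 fold change of right over left that was larger in inverted mutants by 1.309 than in rightward mutants (adjusted p = 0.018 with Benjamini-Hochberg adjustment) and by 1.407 than in wild types (adjusted p = 0.030). *Bmper* differed by 1.624 and 1.336 in the same comparisons (adjusted p = 0.00059 and 0.018). With 1 embryo left out, *Bmp2* was called in 13 of 16 fits against rightward mutants and in 5 of 10 against wild types. *Bmper* was called in 16 of 16 and 7 of 10.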

How the results depend on the processing

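In inverted mutants, where 2 of the 9 genes were called for right over left, DESeq2 called 5 (*Id2*, *Smad6*, *Smad7*, *Smad9* and *Msx2*), no filter on low counts gave 5 (*Id1*, *Id2*, *Smad6*, *Smad7* and *Msx2*), and the fit of all 42 libraries, males alone and the fit without the replicate block each gave 0. Leaving out 1 embryo gave 0 to 2. All 9 values were positive under each of these settings. DESeq2 also called 2 genes for the asymmetry of inverted against rightward mutants, 1 against wild types, and 2 for the left level of inverted mutants against wild types, where edgeR called 0. On simulated data without variation shared by samples of an embryo, DESeq2 also called more genes without a change than edgeR did in each right over left comparison. DESeq2 was not simulated for the other comparisons, and how far this bears on these members was not tested. In other comparisons the count of members called was 0 under every setting run.

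Signs turned for *Smad9* in wild types without the replicate block (0.088), and for *Smad6* (-0.052) and *Smad9* (-0.045) in rightward mutants with males alone. With 1 embryo left out, wild-type values ran from -0.11 to 0.06 for *Id3*, -0.26 to 0.030 for *Id4*, -0.26 to 0.087 for *Smad6* and -0.33 to 0.36 for *Smad9*. Without 19_4, rightward values were -0.023 for *Smad6*, -0.062 for *Smad9* and -0.021 for *Msx2*. *Smad9* was at -0.015 without 1_6 and without 32_3, and *Msx2* at -0.0063 without 32_3. *Id4* on the left of inverted mutants against wild types ran from -0.20 to 0.33, with 0.039, 0.057 and 0.094 without 10_3, 2_7 and 32_2. Without wild type 10_1, a setting chosen after seeing the data, r over embryos between *Id3* and *Smad6*, *Smad7*, *Msx2* and *Msx1* turned sign (0.095, 0.13, 0.11 and -0.0099).

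Over all genes, right over left in inverted mutants called 468 genes in the reported fit, 1755 by DESeq2, 942 without a filter, 305 without the block, 141 in the fit of all libraries and 53 with males alone. With 1 embryo left out it called 138 (without 32_2) to 446 genes, with 181 without 18_2 and 222 without 4_6. The asymmetry of inverted against rightward mutants called 82 genes, 456 by DESeq2, 247 with all embryos with rightward looping as reference, 242 with libraries of both groups only, 131 without a filter, 17 without the block and 7 with males alone, and 18 (without 18_2) to 158 (without 19_4) with 1 embryo left out. That against wild types called 135 genes, 911 by DESeq2, 207 without a filter, 7 without the block, 6 with libraries of both groups only and 3 with males alone, and 17 (without 32_2) to 641 (without 22_4) with 1 embryo left out. Levels on the left called 3 to 7 genes in the 3 pairs of groups and 20 to 104 by DESeq2, those on the right 0 to 3 and 6 to 18, and right over left in rightward mutants 6 and 32. The shares over all genes printed beside the members move with these counts.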
